A study of Mus musculus with 12 samples.

Results

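The genes described here are 42 genes of DNA replication and S phase, the stretch of the cell cycle in which the genome is copied, together with the genes that control entry into it. They form a list of gene names, and the rule that selects them uses no measured value, although the list was drawn up with earlier results of these data known. All 42 were found among the 36528 gene IDs of the count table, and all 42 passed the filter on low counts, out of 16032 genes tested. Whole liver RNA was sequenced from 12 mice. In one group, 6 mice received carbon tetrachloride (CCl4), a solvent that the liver turns into a reactive toxin and that is used to induce liver fibrosis, and in the other, 6 mice received its corn oil vehicle. Both were given by intraperitoneal injection 3 times a week for 6 weeks. The labels name no strain, sex, age, genotype or interval between the last injection and collection, and replicate numbers here only name livers.

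An origin of replication is licensed in G1, when the origin recognition complex, Cdc6 and Cdt1 load the ring of Mcm2 to Mcm7 onto DNA. In S phase the ring becomes an active helicase with Cdc45 and the GINS complex, polymerases copy both strands on the sliding clamp Pcna, and chromatin is rebuilt behind the fork. Cyclin E and the E2F transcription factors control the step from G1 to S. Most hepatocytes of an adult liver are outside the cell cycle and can return to it after injury, when the replication genes are switched on.

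Total counts ran from 43027778 to 70375852 per library. Levels are given as CPM, the counts scaled to a common library size and corrected by TMM, a method that allows for differences in library composition. A gene was called when its adjusted p was under 0.05 in edgeR's quasi-likelihood test with Benjamini-Hochberg adjustment over all genes tested. Of all genes tested, 6256 were called, which is 39.02%. The 8 hepatocyte markers summed to between 95870 and 132000 CPM in the oil livers and to between 87340 and 132200 CPM in the CCl4 livers. Of these 8 markers, 4 were called lower, beside 18.4% of all genes tested, and none was called higher, beside 20.6%. The labels do not say whether livers within a group shared a cage or a day. The p-values set the difference between groups against the spread between these livers only.

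Of the 42 members, 33 rose, 1 fell and 8 were not called. The risen members are 78.6% of the list, against 20.6% of all genes tested, and the single fallen one, E2f8, stands against 18.4% of all genes tested that fell. With upper-quartile scaling, 26.0% of all genes tested rose and 12.6% fell, and 33 members still rose and 1 fell. At least 2-fold rises were called for 20 of the 42 members, against 11.8% of all genes tested. In 24 members, or 57.1%, every CCl4 liver was above every oil liver, against 11.98% of all genes tested. The median log2 fold change of the members was 0.96, and that of all genes tested was 0.01. In whole liver, more cells of a kind and more RNA per cell cannot be told apart.

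**Figure D1:**
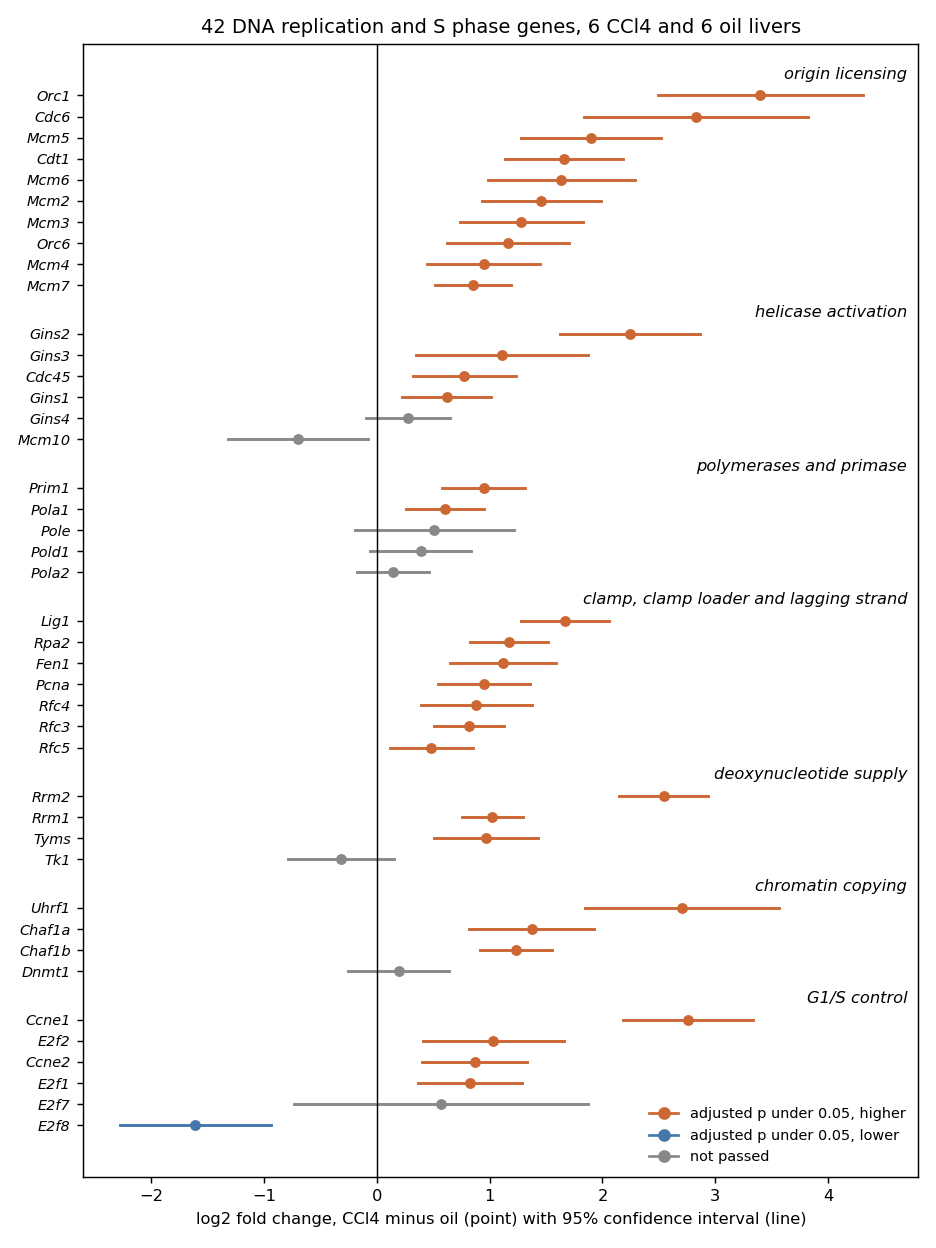
Log2 fold change of each of the 42 members (x axis, CCl4 minus oil, 6 livers a group) with its 95% confidence interval, in blocks by role. Every origin licensing gene and every clamp, clamp loader and lagging strand gene lies to the right of 0 and was called, while E2f8 at the bottom is the single member called lower.

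The promoter sequences show a feature that the choice of members did not use. E2F factors bind DNA words of the form TTTCCCGC, TTTGGCGC, TTTGCCGC or TTTCGCGC, and these 4 words were searched on both strands. RefSeq (GRCm38.p6) gave windows of 300 bases, from 250 before to 50 after a transcription start, for 36 of the 42 members. Some genes have several starts, so that there were 44 windows. The stretches below show 3 of the members with the largest rises (Orc1, Cdc6 and Uhrf1), the overlapping matches of Mcm5 and Mcm6, a match close to the start (Rfc3), a member with a smaller rise (Gins3) and a member that was not called (Dnmt1). Each has 60 bases upstream of the start, is written 5′ to 3′ on the strand of the gene, and has the match in capitals.

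Orc1, chr4:108579394-108579453, plus strand: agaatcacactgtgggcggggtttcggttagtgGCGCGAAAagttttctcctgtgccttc
Cdc6, chr11:98907987-98908046, plus strand: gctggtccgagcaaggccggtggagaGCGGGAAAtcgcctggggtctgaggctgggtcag
Uhrf1, chr17:56304102-56304161, plus strand: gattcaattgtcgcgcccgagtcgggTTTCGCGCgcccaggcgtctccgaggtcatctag
Mcm5, chr8:75109330-75109389, plus strand: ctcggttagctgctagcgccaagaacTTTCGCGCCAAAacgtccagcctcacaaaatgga
Mcm6, chr1:128359782-128359841, minus strand: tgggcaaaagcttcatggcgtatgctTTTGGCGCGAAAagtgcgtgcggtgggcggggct
Rfc3, chr5:151651209-151651268, minus strand: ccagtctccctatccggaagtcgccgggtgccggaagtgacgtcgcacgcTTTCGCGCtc
Gins3, chr8:95633492-95633551, plus strand: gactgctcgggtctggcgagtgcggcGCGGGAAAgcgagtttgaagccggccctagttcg
Dnmt1, chr9:20952809-20952868, minus strand: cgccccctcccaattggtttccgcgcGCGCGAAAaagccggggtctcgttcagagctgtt

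Mcm5 and Mcm6 each carry a pair of words that face each other on opposite strands and share 4 bases, so that the capitals run for 12 bases. In Orc1, Cdc6, Gins3 and Dnmt1 the word lies on the opposite strand and reads GCGCGAAA or GCGGGAAA here. An E2F word was found in 16 of the 44 windows, or 36.4%, against 3.56% of the 15171 windows of tested genes and 2.26% of all 32851 windows. By gene, 16 of 36 members had one, or 44.4%, against 4.28% of the 11858 tested genes with a window. At least 2 words in 1 window were found for 6 members. Among members with a window, 13 of the 29 that rose had a word and 3 of the other 7 did, namely Dnmt1, E2f7 and Pold1. The words are thus present in members that were called and in members that were not. The windows of Rrm2, Ccne1 and E2f8 held none of the 4 words, which says only that these letters are not in those windows.

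The shares ran differently for 2 other words. The cell cycle homology word TTTGAA, known from mitosis gene promoters, was in 15.9% of the members' windows, 12.8% of those of tested genes, 17.9% of all windows and 12 of the 17 windows of mitosis genes, or 70.6%. The CCAAT box was in 61.4% of the members' windows, 82.4% of those of mitosis genes, 37.0% of those of tested genes and 37.4% of all windows. The E2F word was in 1 of the 17 mitosis windows, or 5.88%. Both words were searched on both strands. A CCAAT box can share at most 1 end base with an E2F word, and TTTGAA shares none. A match is a description of the letters and not of a bound site.

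**Figure D2:**
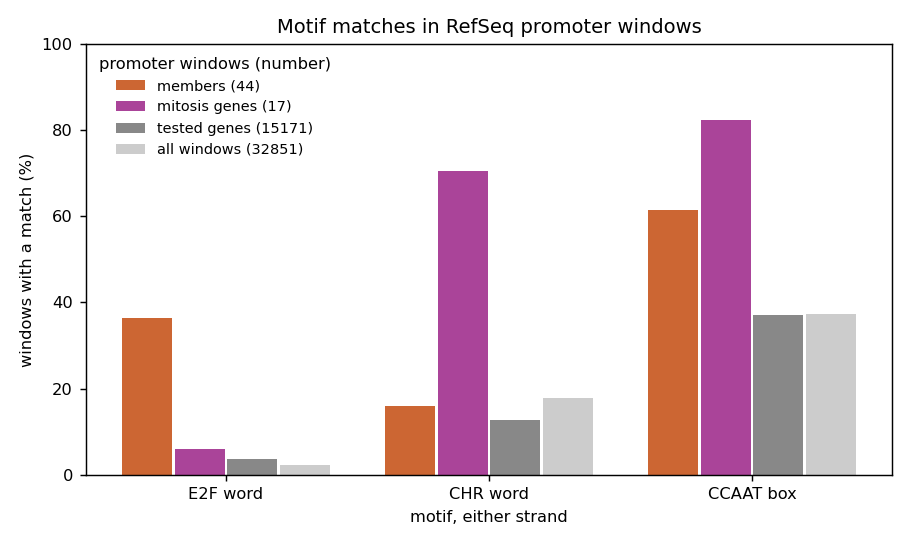
Percentage of RefSeq promoter windows of 300 bases (y axis) with a match on either strand to an E2F word, the cell cycle homology word or a CCAAT box (x axis), for members, mitosis genes, tested genes and all windows. Bars for the members are tallest beside the other sets for the E2F word, at 36.4%, and bars for the mitosis genes for the other 2.

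All 10 origin licensing genes rose, with a median log2 fold change of 1.55, and in 9 of them no CCl4 liver overlapped an oil liver. Their summed level was 31.2 to 62.4 CPM over the oil livers and 82.9 to 153 CPM over the CCl4 livers. Orc1, the largest subunit of the origin recognition complex, had the largest fold change of the 42. It was at 0 to 0.0703 CPM in the oil livers, with a median of 0.0492, and at 0.237 to 0.622 CPM in the CCl4 livers, with a median of 0.492. These levels rest on 0 to 3 counts per oil library and 15 to 44 counts per CCl4 library, and the 0 count of oil replicate 4 allows a level of up to 0.0702 CPM by counting error alone. The fitted rise was 10.6-fold (95% interval 5.63 to 19.8, adjusted p = 2.82e-05). Orc1 passed the filter on low counts through its CCl4 livers, so that the group where it is high decided that it was tested. Where the spans overlap, reads of Prpf38a, on the opposite strand, cannot be told apart from those of Orc1 unless strand was used in counting. Prpf38a rose too, with a log2 fold change of 0.70 (adjusted p = 0.0203), from a mean of 8.92 to 14.5 CPM. The mean of Orc1 went from 0.0416 to 0.460 CPM, far under the level of Prpf38a in both groups. Whether reads of Prpf38a reached the count of Orc1 was not tested.

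Cdc6, the loader ATPase that joins the origin complex, was at 0 to 0.324 CPM in the oil livers (median 0.182) and at 0.721 to 2.13 CPM in the CCl4 livers (median 1.195). Its rise was 7.11-fold (95% interval 3.58 to 14.1, adjusted p = 0.000277), on 0 to 21 counts per oil library and 46 to 161 per CCl4 library. The 0 count was in oil replicate 5, where it allows up to 0.0780 CPM. Cdc6 too passed the filter through its CCl4 livers. Its log2 fold change was 2.83 with the filter and 2.835 with no filter, where it was still called. Both fits use the same counts of Cdc6, so the closeness of these values cannot show whether its low oil counts matter. Under a stricter filter on low counts Cdc6 was not tested. Cdt1, the partner of Cdc6 in loading the ring, was at 1.71 to 3.71 CPM in oil (median 2.55) and at 5.97 to 12.3 CPM in CCl4 livers (median 6.98), a rise of 3.16-fold (adjusted p = 0.000110). Both loaders were highest in CCl4 replicate 5. Orc6, the smallest subunit of the origin complex, ran from 3.50 to 7.02 CPM in oil (median 5.15) and from 7.07 to 20.6 CPM in CCl4 livers (median 10.1), and rose 2.24-fold (adjusted p = 0.00235). The lowest CCl4 liver and the highest oil liver for Orc6 were next to each other.

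The 6 subunits of the Mcm ring all rose, by 1.80-fold for Mcm7 to 3.72-fold for Mcm5. Mcm5 was at 2.32 to 6.22 CPM in the oil livers (median 4.83) and at 8.61 to 22.0 CPM in the CCl4 livers (median 17.5), with an adjusted p of 0.000156. CCl4 replicate 4 was far under the other 5 CCl4 livers, which ran from 15.8 to 22.0 CPM, and was still above every oil liver. Mcm6 was at 3.56 to 15.1 CPM in oil (median 9.96) and at 18.1 to 39.3 CPM in CCl4 livers (median 28.1), a rise of 3.11-fold (adjusted p = 0.000740). Mcm2 rose 2.75-fold, from 3.67 to 8.64 CPM (median 5.82) to 11.1 to 24.1 CPM (median 15.8; adjusted p = 0.000352). Mcm3 rose 2.43-fold, from 2.73 to 7.60 CPM (median 5.59) to 9.92 to 19.7 CPM (median 12.5; adjusted p = 0.00132). For these 4 subunits the groups did not overlap. Mcm4 was the licensing gene whose groups did overlap: its highest oil liver, replicate 1 at 10.3 CPM, was above CCl4 replicate 4 at 8.53 CPM, and its rise was 1.93-fold (adjusted p = 0.00590). In the ring each subunit has 1 place, and per kilobase of exon the levels of the 6 transcripts ran from 1.29 to 2.15 CPM per kilobase in oil and from 3.65 to 6.56 CPM per kilobase in CCl4 livers.

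Of the 6 helicase activation genes, 4 rose and 2 were not called. Gins2, a subunit of the 4-part GINS complex that completes the helicase, was at 0.819 to 1.67 CPM in the oil livers (median 1.30) and at 3.50 to 11.2 CPM in the CCl4 livers (median 5.41), a rise of 4.73-fold (adjusted p = 3.88e-05). CCl4 replicate 6 held the highest level of Gins2, and CCl4 replicates 1 and 5 the lowest of their group. The differences between GINS subunits were not tested. Gins3 rose 2.16-fold (adjusted p = 0.0235) with overlapping groups, as oil replicate 5 at 2.08 CPM was above 4 of the CCl4 livers. Leaving out any of oil replicates 2, 3, 4 or 6 took its adjusted p to between 0.0522 and 0.0556. Gins1 rose 1.54-fold (adjusted p = 0.0175), also with overlapping groups. Gins4 was not called, at 11.96 to 17.0 CPM in oil (median 14.0) and 12.1 to 25.0 CPM in CCl4 livers (median 17.7), with a log2 fold change of 0.28 (95% interval -0.10 to 0.65, adjusted p = 0.222). The 4 proteins are known to work as 1 complex with 1 copy of each, and their transcripts here were not at one level: per kilobase of exon, Gins4 was at 10.8 CPM and Gins2 at 0.325 CPM in the oil livers.

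Cdc45, which holds the ring and the GINS complex together, was at 0.936 to 2.15 CPM in oil (median 1.83) and at 2.35 to 3.91 CPM in CCl4 livers (median 2.75), and rose 1.71-fold (adjusted p = 0.0111) with no overlap. Mcm10, a factor needed to start the assembled helicase, went the other way without passing the test. It was at 24.1 to 81.8 CPM in the oil livers (median 58.8) and at 19.7 to 54.2 CPM in the CCl4 livers (median 31.0), with a log2 fold change of -0.70 (95% interval -1.32 to -0.07, adjusted p = 0.0705). Oil replicates 1 to 4 were all above every CCl4 liver, and oil replicates 5 and 6 were within the CCl4 range. Without oil replicate 5 the log2 fold change was -0.85 (adjusted p = 0.0155), without oil replicate 6 it was -0.81 (adjusted p = 0.0473), and without CCl4 replicate 4 it was -0.88 (adjusted p = 0.0294), so that Mcm10 was called lower when any of these 3 was left out. DESeq2 (adjusted p = 0.0432) and limma-voom with quality weights (adjusted p = 0.0152) also called it lower. Per kilobase of exon, Mcm10 in oil livers was at 11.0 CPM, while no subunit of the Mcm ring was above 2.15 CPM.

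**Figure D3:**
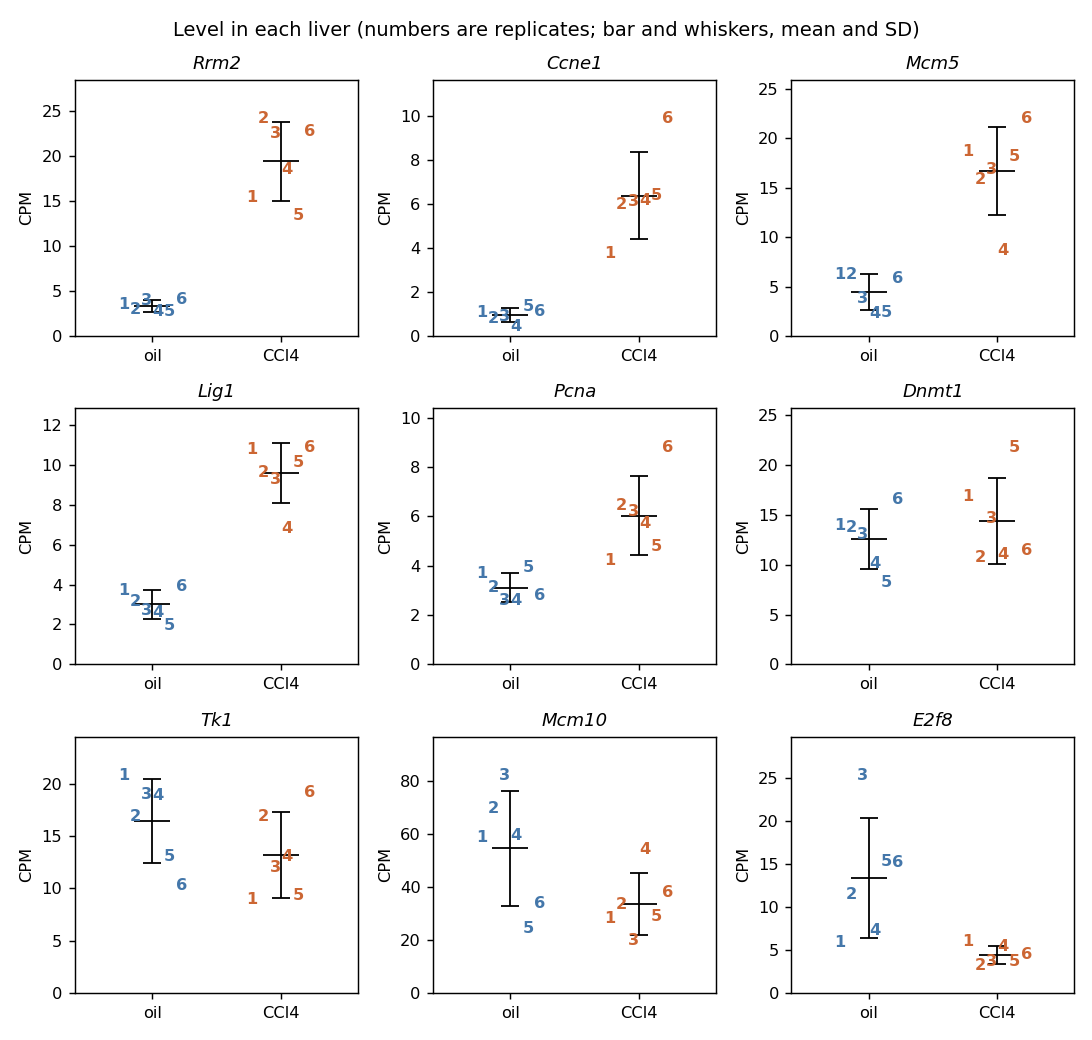
CPM (y axis) of 9 members in each oil and CCl4 liver (x axis), where each numeral marks the replicate and the bar and whiskers are the mean and SD of 6 livers. Rrm2, Ccne1, Mcm5, Lig1 and Pcna show no overlap between groups, Dnmt1, Tk1 and Mcm10 were not called, and the spread of E2f8 is wide in oil and narrow in CCl4 livers.

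Among the 5 polymerase and primase genes, 2 rose and 3 were not called, and the median log2 fold change was 0.51. Prim1, the catalytic primase subunit that lays down RNA primers, was at 4.03 to 6.83 CPM in oil (median 4.61) and at 7.34 to 11.6 CPM in CCl4 livers (median 9.24), a rise of 1.93-fold (adjusted p = 0.000668). The highest oil liver was replicate 1, and the other 5 were within 4.03 to 4.75 CPM. Pola1, the catalytic subunit of polymerase alpha, which extends those primers, rose 1.52-fold from 3.56 ± 0.632 to 5.42 ± 0.818 CPM (SD, n = 6; adjusted p = 0.00897). Its partner subunit Pola2 was at 7.77 ± 1.22 CPM in oil and 8.57 ± 1.48 CPM in CCl4 livers (SD, n = 6), with a log2 fold change of 0.14 (95% interval -0.18 to 0.46, adjusted p = 0.468). The upper bound of that interval is a 1.38-fold rise.

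The catalytic subunits of the leading and lagging strand polymerases were not called either. Pole, of the leading strand polymerase epsilon, was at 0.598 to 3.15 CPM in oil (median 2.56) and at 2.10 to 4.81 CPM in CCl4 livers (median 3.09), with a log2 fold change of 0.51 (95% interval -0.20 to 1.22, adjusted p = 0.230). Its lowest value was oil replicate 5, and the other 5 oil livers ran from 1.80 to 3.15 CPM. Pold1, of the lagging strand polymerase delta, was at 3.07 to 6.45 CPM in oil (median 4.83) and at 4.52 to 8.26 CPM in CCl4 livers (median 6.28), with a log2 fold change of 0.39 (95% interval -0.06 to 0.84, adjusted p = 0.150). When a term for the length slope of each library, described after the gene groups, was added to the model, both were called higher: Pole at 1.08 (adjusted p = 0.00259) and Pold1 at 0.57 (adjusted p = 0.0368).

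All 7 clamp, clamp loader and lagging strand genes rose, with a median log2 fold change of 0.95. Lig1, the ligase that seals Okazaki fragments, was at 1.95 to 3.91 CPM in the oil livers (median 2.94) and at 6.80 to 10.9 CPM in the CCl4 livers (median 9.86), a rise of 3.18-fold (adjusted p = 9.24e-06). CCl4 replicate 4 was the lowest, with the other 5 at 9.25 to 10.9 CPM. Rpa2, a subunit of the protein that coats single-stranded DNA, rose 2.25-fold from 6.82 ± 1.42 to 15.4 ± 2.63 CPM (SD, n = 6; adjusted p = 6.81e-05). Fen1, the nuclease that trims the flaps of Okazaki fragments, rose 2.17-fold from 5.40 ± 2.05 to 11.7 ± 1.84 CPM (SD, n = 6; adjusted p = 0.00120). In Fen1, oil replicate 5 at 9.10 CPM stood above the other oil livers, which ended at 5.76 CPM, and just under the lowest CCl4 liver at 9.64 CPM. The opposite-strand gene Tmem258, which overlaps the Fen1 span, rose as well, with a log2 fold change of 0.83 (adjusted p = 0.0189).

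Pcna, the sliding clamp that is often stained as a marker of S phase, was at 2.58 to 3.93 CPM in oil (median 2.96) and at 4.23 to 8.81 CPM in CCl4 livers (median 5.96), a rise of 1.93-fold (adjusted p = 0.00129). Its groups did not overlap, but CCl4 replicate 1 was close to oil replicate 5. The clamp loader subunits rose as well, Rfc4 1.84-fold (95% interval 1.31 to 2.59, adjusted p = 0.00775), Rfc3 1.76-fold (95% interval 1.42 to 2.18, adjusted p = 0.000486) and Rfc5 1.40-fold (95% interval 1.08 to 1.80, adjusted p = 0.0377), and their intervals overlap that of Pcna, 1.46 to 2.56. Rfc3 did not overlap between groups, at 5.89 to 7.29 CPM in oil and 8.73 to 14.6 CPM in CCl4 livers, and Rfc4 and Rfc5 did. Rfc5 was the least firm of the 33 rises, as it lost its call in 9 of 19 alternative analyses, among them those without oil replicates 1, 3, 4 or 6 or without CCl4 replicates 2, 3 or 6 (adjusted p from 0.0535 to 0.0954).

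In the supply of deoxynucleotides, 3 of 4 genes rose. Rrm2, the small subunit of ribonucleotide reductase, which makes deoxynucleotides and limits the enzyme outside S phase, had the smallest adjusted p of the 42 members. It was at 2.73 to 4.08 CPM in the oil livers (median 3.20) and at 13.3 to 24.1 CPM in the CCl4 livers (median 20.5). The rise was 5.83-fold (95% interval 4.44 to 7.66, adjusted p = 3.83e-07), and the lowest CCl4 liver was more than 3 times the highest oil liver. Rrm1, the large subunit, rose 2.03-fold, from 9.11 to 13.1 CPM (median 11.2) to 19.8 to 25.7 CPM (median 22.4; adjusted p = 2.42e-05), with no overlap. Both subunits rose, and per kilobase of exon Rrm2 went from 1.51 to 8.84 CPM while Rrm1 went from 2.80 to 5.70 CPM, so that the order of their levels was exchanged.

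Tyms, which makes thymidylate, was at 4.29 to 6.76 CPM in oil (median 5.26) and at 6.49 to 15.4 CPM in CCl4 livers (median 9.69), a rise of 1.96-fold (adjusted p = 0.00297). The groups overlapped through oil replicate 5 and CCl4 replicate 5. Tk1, which salvages thymidine, did not pass the test, at 10.3 to 20.8 CPM in oil (median 17.9) and at 8.98 to 19.2 CPM in CCl4 livers (median 12.5), with a log2 fold change of -0.32 (95% interval -0.79 to 0.15, adjusted p = 0.264). The span of Tk1 overlaps that of Afmid, on the opposite strand, whose level fell from 174 ± 34.1 to 35.3 ± 6.86 CPM (SD, n = 6; log2 fold change -2.31, adjusted p = 5.36e-07). Whether reads of Afmid reached the count of Tk1 was not tested, as the use of strand in counting is not stated in the labels used here.

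Among the 4 genes of chromatin copying, 3 rose and Dnmt1 was not called. Uhrf1, which recognises hemimethylated DNA behind the fork, was at 0.104 to 0.679 CPM in the oil livers (median 0.370) and at 1.02 to 3.79 CPM in the CCl4 livers (median 2.45), a rise of 6.53-fold (95% interval 3.60 to 11.8, adjusted p = 0.000119). Dnmt1, the methyltransferase that Uhrf1 brings to that DNA, was at 8.25 to 16.6 CPM in oil (median 13.4) and at 10.7 to 21.8 CPM in CCl4 livers (median 13.1). Its log2 fold change was 0.19 (95% interval -0.25 to 0.64, adjusted p = 0.478), and 0.54 (adjusted p = 0.00253) when the length slope was added to the model. Whether the partners differed in their change was not tested. Chaf1a and Chaf1b, subunits of the histone chaperone that deposits new nucleosomes, rose 2.59-fold (adjusted p = 0.000864) and 2.35-fold (adjusted p = 2.05e-05). Chaf1b had a narrow spread, at 1.12 to 1.84 CPM in oil (median 1.71) and 3.50 to 4.28 CPM in CCl4 livers (median 3.70).

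Of the 6 G1/S control genes, 4 rose, E2f8 fell and E2f7 was not called. Ccne1, cyclin E1, which drives Cdk2 at the start of S phase, was at 0.445 to 1.35 CPM in the oil livers (median 0.975) and at 3.74 to 9.89 CPM in the CCl4 livers (median 6.16). Its rise of 6.76-fold (95% interval 4.53 to 10.1, adjusted p = 3.87e-06) was the third in size after Orc1 and Cdc6. Ccne2, cyclin E2, rose 1.83-fold (adjusted p = 0.00616), at 4.09 to 6.00 CPM in oil (median 4.93) and 5.003 to 13.8 CPM in CCl4 livers (median 8.36), and CCl4 replicate 1 lay within the oil range. Per kilobase of exon, Ccne2 was the higher of the pair in oil livers, at 1.55 ± 0.215 against 0.471 ± 0.157 CPM (SD, n = 6). In CCl4 livers Ccne1 was at 3.19 ± 0.987 and Ccne2 at 2.83 ± 1.01 CPM (SD, n = 6). That gap in CCl4 livers is within the spread, and the difference was not tested.

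The E2F members divided. The activators E2f1 and E2f2, which switch on replication genes, rose 1.77-fold (adjusted p = 0.00797) and 2.05-fold (adjusted p = 0.0127). E2f1 was at 2.19 to 6.07 CPM in oil (median 5.42) and at 6.90 to 10.2 CPM in CCl4 livers (median 8.49), without overlap, and E2f2 was at 1.36 to 4.24 CPM in oil (median 2.39) and at 2.85 to 7.30 CPM in CCl4 livers (median 5.54), with overlap. E2f7 and E2f8 are the atypical repressors of the same targets, expressed late in S phase and known for promoting polyploidy in hepatocytes. E2f8 was at 5.83, 11.5, 25.3, 7.26, 15.3 and 15.2 CPM in oil replicates 1 to 6 and at 5.93, 3.21, 3.70, 5.36, 3.67 and 4.50 CPM in CCl4 replicates 1 to 6. The fall was 3.04-fold (log2 fold change -1.61, 95% interval -2.27 to -0.94, adjusted p = 0.00106), and the groups met only at oil replicate 1 and CCl4 replicate 1. It held in all 19 alternatives, with log2 fold changes from -1.80 to -1.33. E2f7 was low in both groups, at 0.0936 to 1.08 CPM in oil and 0.165 to 0.875 CPM in CCl4 livers, on 4 to 70 and 9 to 66 counts per library, and a change was not detectable at this depth and spread (log2 fold change 0.57, 95% interval -0.74 to 1.87, adjusted p = 0.475).

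The 3 members with the highest level per kilobase in oil livers, a set picked out after the values were seen, were all among the 8 not called: Tk1 at 11.5, Mcm10 at 11.0 and Gins4 at 10.8 CPM per kilobase. Next came Rfc3 at 4.85. At the other end were Orc1 at 0.0138, Cdc6 at 0.0356, E2f7 at 0.0442 and Uhrf1 at 0.0980 CPM per kilobase, of which Orc1, Cdc6 and Uhrf1 had 3 of the 4 largest rises and E2f7 was not called. A low level in oil and a large fold change share the same oil values, so that this order is a description.

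**Figure D4:**
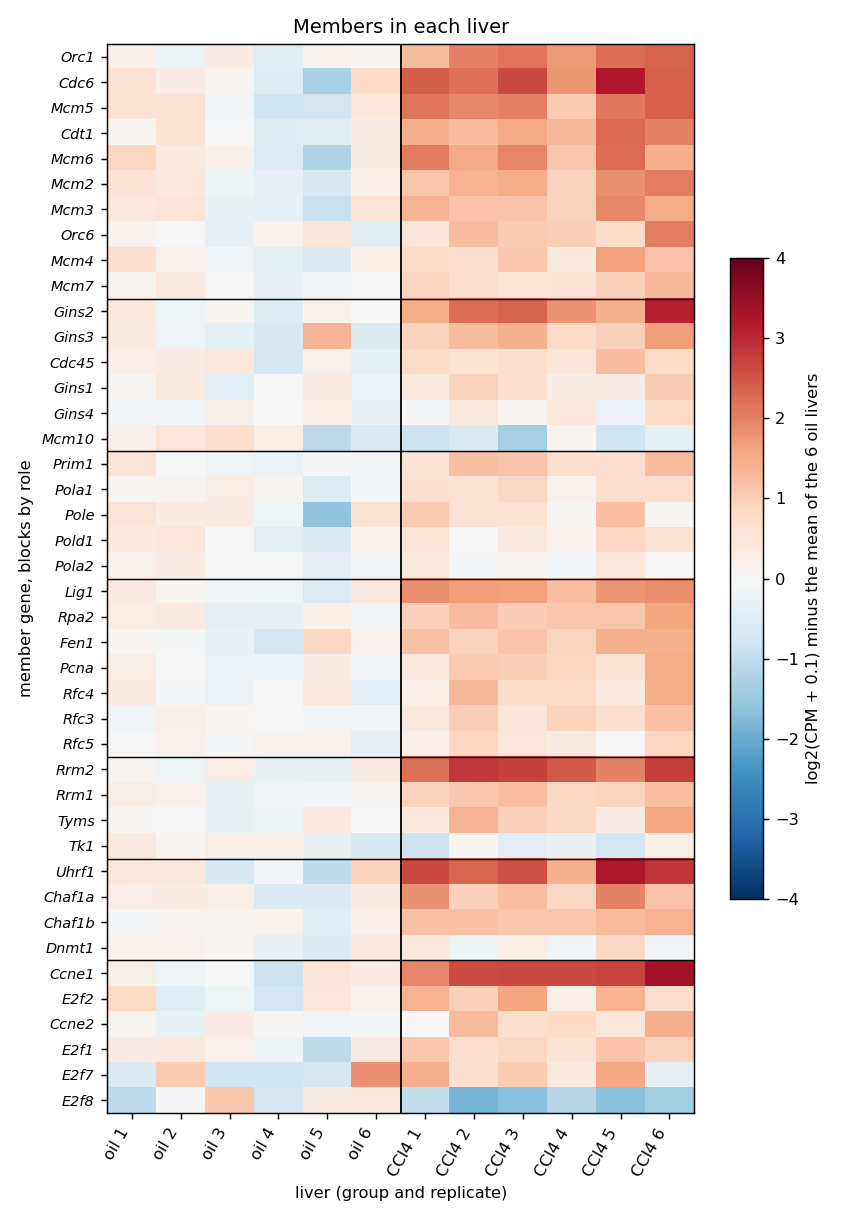
Colour gives log2(CPM + 0.1) of each member (rows, in blocks by role) in each liver (columns), minus its mean over the 6 oil livers, with red for higher and blue for lower. The red of the CCl4 columns is deepest for Cdc6, Uhrf1, Ccne1 and Rrm2, and E2f8 is the row that is blue in all 6.

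The mean log2 CPM of the 42 members was 1.997, 1.94, 1.75, 1.43, 1.50 and 1.90 in oil replicates 1 to 6 and 2.74, 2.83, 2.86, 2.57, 2.93 and 3.09 in CCl4 replicates 1 to 6. The group means were 1.75 ± 0.24 and 2.84 ± 0.17 (SD, n = 6), and the groups did not overlap. CCl4 replicate 6 held the highest level of its group for 21 members and CCl4 replicate 5 for 14, while CCl4 replicate 4 held the lowest for 19. Within oil, replicates 5 and 4 held the lowest for 16 and 14 members. The rise was thus seen in each CCl4 liver, and livers within a group did not all stand at one level.

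Livers also differed in how levels depended on exon length. The slope of log2 CPM on log2 exon length, fitted within each liver, ran from -0.13 to 0.27 in oil livers. In CCl4 livers it ran from -0.35 to 0.18. It was lowest in CCl4 replicate 6 and highest in oil replicate 6. The 21 shorter members were highest in CCl4 replicate 6 (mean log2 CPM 3.25) and the longer ones in CCl4 replicate 5 (3.03). With the slope added to the model, Dnmt1, Pole and Pold1 were called higher, Rfc5 and Gins1 lost their calls, and Tk1 was called lower at a log2 fold change of -0.66 (adjusted p = 0.0205). The slope was itself correlated with group, at a Pearson r of -0.50, and was lower in CCl4 livers. In that model the parts of length and of treatment cannot be fully told apart. The part of RNA quality in these results was not tested.

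Mitosis genes, which act after S phase, had another order among the CCl4 livers. All 20 rose, against 20.6% of all genes tested, and their median log2 fold change was 3.21. None overlapped between groups, and 11.98% of all genes tested had every CCl4 liver above every oil liver. Their mean log2 CPM was -0.54, -0.91, -1.20, -1.23, -1.74 and -0.48 in oil replicates 1 to 6 and 2.45, 2.54, 2.35, 1.90, 1.13 and 1.53 in CCl4 replicates 1 to 6. CCl4 replicates 6 and 5, the highest 2 livers for the replication members, were the lowest 2 CCl4 livers for mitosis genes, an order noticed after the values were seen. CCl4 replicate 5 was the lowest CCl4 liver for 14 of the 20 mitosis genes and replicate 6 for the other 6. Split by exon length, replicates 5 and 6 were the lowest CCl4 livers in both parts of the mitosis genes, at 0.64 and 1.30 for the 10 shorter genes and 1.63 and 1.77 for the 10 longer ones. For the members the order held in the longer part, with replicate 5 at 3.03 and replicate 6 at 2.92, but in the shorter part replicate 6 at 3.25 was followed by replicate 2 at 2.90, above replicate 5 at 2.84. Cdk1, the kinase of mitotic entry, was at 7.02 CPM in CCl4 replicate 5 and at 13.3 to 25.9 CPM in the other 5 CCl4 livers. Rrm2 was also lowest in CCl4 replicate 5, at 13.3 CPM, where Cdc6, Cdt1, Mcm3, Mcm4, Mcm6 and Uhrf1 were at their highest.

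**Figure D5:**
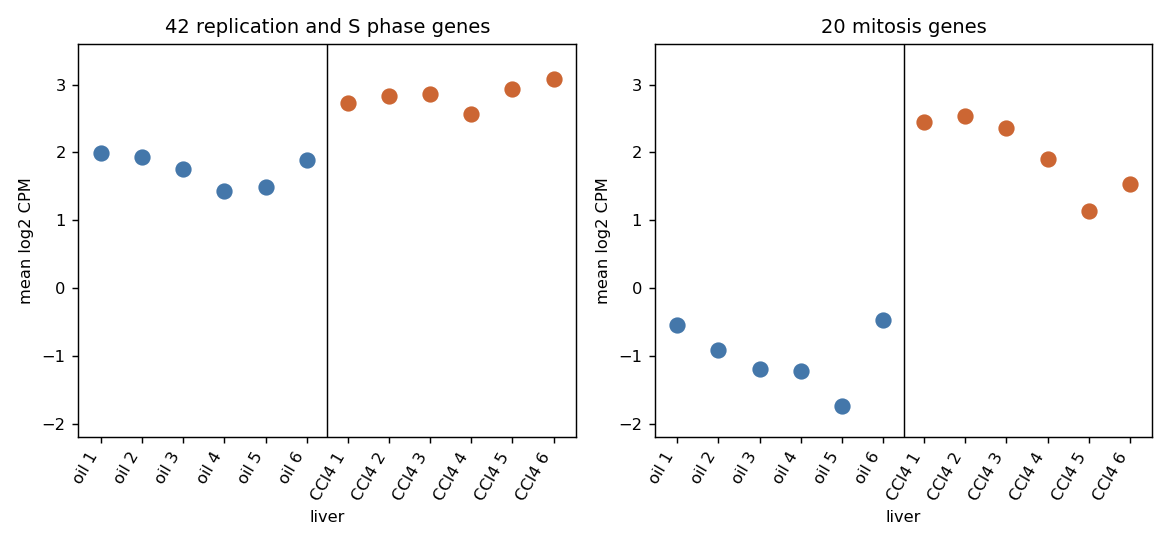
Mean log2 CPM (y axis) of the 42 replication and S phase members, left, and of the 20 mitosis genes, right, with 1 point for each liver (x axis). CCl4 replicates 5 and 6 stand highest of all livers on the left, at 2.93 and 3.09, and lowest of the CCl4 livers on the right, at 1.13 and 1.53.

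Other genes of the pathway were taken from lists of the same process. Of all genes tested, 20.6% rose and 18.4% fell, and no list was tested against these shares. Among 15 other licensing and firing genes tested, 5 rose and 1 fell. Cdc7, the kinase that fires licensed origins, rose 3.998-fold (adjusted p = 0.000477), from 0.287 ± 0.170 to 1.16 ± 0.358 CPM (SD, n = 6), and Gmnn, the inhibitor of Cdt1, rose 2.23-fold (adjusted p = 0.00139). Mcmbp, which binds Mcm subunits, was called lower at a log2 fold change of -0.29 (adjusted p = 0.0440) and lost that call in 11 of 19 alternatives. Of 24 other fork genes, 13 rose and none fell, among them Pole2, a partner of Pole, by 3.28-fold (adjusted p = 1.73e-05), and Dscc1, part of an alternative clamp loader, by 10.6-fold (log2 fold change 3.40, 95% interval 2.48 to 4.33, adjusted p = 3.29e-05). The level of Dscc1 rests on 2 to 3 counts per oil library and 17 to 70 per CCl4 library, and that of Cdc7 on 5 to 30 and 36 to 117. Pole2 and Pole are subunits of 1 polymerase, and the difference between them was not tested.

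Of 13 other deoxynucleotide genes, 4 rose and 2 fell, beside 20.6% of all genes tested that rose and 18.4% that fell. Dck, a salvage kinase, rose 1.88-fold (adjusted p = 0.000324). The folate enzymes Mthfd1 and Shmt1, which carry one-carbon units toward thymidylate and other products, fell 1.84-fold (adjusted p = 0.000194) and 1.50-fold (adjusted p = 0.000939), with every CCl4 liver under every oil liver. Of 14 other E2F, RB and CDK2 control genes, 5 rose and 4 fell, beside the same shares of all genes tested. Ccna2, cyclin A2, rose 3.26-fold (adjusted p = 7.36e-06), from 5.41 ± 0.484 to 17.7 ± 5.27 CPM (SD, n = 6). The 4 that fell were Rbl2 and Rb1, pocket proteins that hold E2F targets silent, by 1.87-fold (adjusted p = 0.000107) and 1.57-fold (adjusted p = 0.00350), Tfdp2, an E2F partner, by 1.53-fold (adjusted p = 0.00710), and E2f6, a repressor, by 1.35-fold (adjusted p = 0.0102). With upper-quartile scaling E2f6 was not called, at a log2 fold change of -0.31 (adjusted p = 0.0538), and the other 3 were called in all 19 alternatives. For Rbl2 the oil livers were at 37.1 to 44.3 CPM (median 39.4) and the CCl4 livers at 14.4 to 24.9 CPM (median 22.7).

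Of 12 other chromatin copying genes, 9 rose and none fell, beside 20.6% of all genes tested that rose and 18.4% that fell. Asf1b, a histone chaperone, rose 4.69-fold (adjusted p = 2.52e-05) and Mms22l, which acts at stalled forks, 2.16-fold (adjusted p = 9.87e-05). Of 15 replication checkpoint genes, 6 rose and none fell, beside the same shares. Brca1, a repair gene, rose 2.98-fold (adjusted p = 1.39e-05). Cdk1 and Aurkb, the mitosis genes with the smallest p, rose 9.41-fold (adjusted p = 1.71e-06) and 11.9-fold (adjusted p = 1.74e-06).

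Markers of some other liver cells moved with treatment too. The background is 20.6% of all genes tested that rose and 18.4% that fell. Stellate cell and fibroblast markers rose in 8 of 8, with a summed level of 192 to 312 CPM in oil and 685 to 940 CPM in CCl4 livers. Macrophage and monocyte markers rose in 6 of 8, from 200 to 277 CPM to 427 to 727 CPM. Cholangiocyte markers rose in 3 of 7 tested, from 50.5 to 83.1 CPM to 158 to 214 CPM, and B cell markers in 5 of 8, from 4.62 to 6.85 CPM to 8.65 to 11.1 CPM. Plasma cell markers rose in 4 of 7 tested, at 417 to 767 CPM and 459 to 614 CPM. Hepatocyte markers fell in 4 of 8, and endothelial markers rose in 2 and fell in 1 of 8. T and NK cell markers rose in 1 and fell in 1 of 8. Erythroid markers rose in 1 and fell in 2 of 7, and neutrophil markers rose in 1 of 4 tested. For each of these lists, and for the plasma cell markers, the summed level overlapped between the groups. None of the tested markers was under 0.1 CPM in all 12 livers. Which cells carried the members' RNA, and the part of cell composition in their rise, was not tested.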

How the data were processed

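RNA was measured in 12 whole mouse livers, 6 from CCl4 and 6 from corn oil injections. Column-purified total RNA went into a stranded library kit, per the labels' protocols. The authors deposited raw read counts per Entrez gene ID, and the 12 columns of their table hold the same values as the single files. The build was GRCm38, per the submitters' processing notes. The sources used here name no aligner, counter, annotation or use of strand. The spans of 11 members overlap another tested gene (Ccne2, Cdc45, Chaf1a, E2f1, Fen1, Gins2, Lig1, Mcm7, Orc1, Rfc4 and Tk1), so that their counts may share reads.

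RefSeq (GRCm38.p6) named 31049 of 36528 IDs, and 10900 IDs had no count in any library. The 30 replicate pairs all showed more than sampling noise, with a chi-square of 53.4 or more per gene. After filterByExpr and TMM scaling, edgeR 4.0.16 in R 4.3.3 gave the tests (robust quasi-likelihood F test, all 12 livers, treatment only, Benjamini-Hochberg threshold 0.05), which was tested on simulated data first. Log2 CPM used a prior count of 2. Exon length was the union of GENCODE exons, available for 86.6% of tested genes. The level that a 0 count allows is 3 counts, and such limits cover counting error only.

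The members and lists were chosen with earlier results of these data known. All members are named. From each other pathway list the named genes are the 2 called genes with the smallest p and each called gene against the majority. Of the genes so named, 1 is not reported here. The alternatives were scaling by upper quartiles or by DESeq2 size factors, DESeq2 1.42.0 itself, limma-voom (limma 3.58.1) with quality weights, no filter, 50 counts in 6 livers, a term for the length slope and leaving out each liver. A planned search of protein motifs was not analysed here.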

Additional observations from a re-analysis of the deposited data

Results flagged for a closer look

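The members and their mean were checked in each group of 6 livers for a liver far from the others, and 4 of 86 groups had one, where chance gives about 1 in 20. Mcm5 was lowest in CCl4 replicate 4, at 8.61 CPM, with the other CCl4 livers at 15.8 to 22.0 CPM. Lig1 was also lowest in CCl4 replicate 4, at 6.80 CPM, with the others at 9.25 to 10.9 CPM. CCl4 replicate 4 was the lowest CCl4 liver for 19 of the 42 members. Prim1 was highest in oil replicate 1, at 6.83 CPM, with the other oil livers at 4.03 to 4.75 CPM. Pole was lowest in oil replicate 5, at 0.598 CPM, with the others at 1.80 to 3.15 CPM. Oil replicate 5 had the lowest length slope of the oil livers, at -0.13, and Pole is among the longest of the 42 genes, with 7423 exon bases; the part of length in its low value was not tested. The calls of Mcm5, Lig1 and Prim1 held in all 19 alternatives.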

How the results depend on the processing

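The number of members called higher was 31 to 33 when each liver was left out in turn and 31 to 34 under the other alternatives, and the median log2 fold change stayed between 0.89 and 1.08. Of the 33 rises, 30 were called in every alternative that tested them; the other 3 were Rfc5, Gins3 and Gins1. The number called lower went from 1 to 2 with DESeq2, limma-voom or a term for the length slope, and was 1 to 2 when each liver was left out. The second gene was Mcm10, or Tk1 with the length slope. The log2 fold change of Gins4 changed sign with the length slope, to -0.059 (adjusted p = 0.696), and its main value had not been called; the cause was not tested. Orc1, Cdc6 and E2f7 were not among the genes tested under the filter of 50 counts in 6 livers. Genes called ran from 5190 to 8729 over the alternatives. Upper-quartile scaling moved the median of all genes to 0.13 and the share of called genes that were higher from 52.8% to 67.3%. No paired analysis was possible because the labels give no replicate numbers shared between the groups. Depth limits Orc1, with 0 to 3 counts per oil library, most of the members.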

Other observations

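Histones are made in bulk in S phase, and 67 genes of replication-dependent histones were in the table, of which 12 passed the filter on low counts. Of these, 3 rose and 2 fell, with a median log2 fold change of 0.12. These counts are near the background, as 20.6% of all genes tested rose and 18.4% fell, and the single genes are given as values. H2aw rose 1.58-fold, from 3.17 ± 0.533 to 5.01 ± 0.486 CPM (SD, n = 6; edgeR adjusted p = 0.00228). H3c14 fell 1.62-fold, from 6.77 ± 1.99 to 4.17 ± 1.16 CPM (SD, n = 6; edgeR adjusted p = 0.0236), and H1f4 fell 1.88-fold (edgeR adjusted p = 0.0190). H3c14 lost its call under upper-quartile scaling and with a term for the length slope, and H1f4 with the latter. Histone genes are near-identical copies, so that the counts of single genes are uncertain.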
